A study of Arabidopsis thaliana with 12 samples.

Results

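Far-red light and warmth given together were compared with neither signal, using 6 of the 12 arrays of the series. The members were chosen by array title: 3 arrays of plants in white light with supplemental far-red at 26 °C (WFR 26 °C) and 3 arrays of plants in white light alone at 22 °C (WL 22 °C). The other 6 arrays, far-red at 22 °C (WFR 22 °C) and white light at 26 °C (WL 26 °C), served only to set the joint change beside the sum of the single changes.

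All plants were wild-type Arabidopsis thaliana of ecotype Columbia, and all had spent 9 days in continuous white light at 22 °C. They then stayed for 24 h in their condition and were harvested when 10 days old. Total RNA of the aerial part was labelled with biotin and hybridised to one-colour arrays. The series varied light quality and temperature independently to study shade avoidance at both temperatures.

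Leaves absorb red light and reflect far-red light, so added far-red imitates a neighbouring plant, lowers the share of active phytochrome and starts shade avoidance. Warmth speeds the reversion of phytochrome B to its inactive form. Both signals act in part through phytochrome-interacting factors, transcription factors that raise auxin synthesis and auxin-inducible genes and promote stem and petiole elongation. Cold-regulated genes of the CBF pathway are also sensitive to temperature.

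Values are log2 expression per probe set. On the arrays compared, array medians ran from 6.91 to 7.003, and arrays correlated across probe sets at 0.99526 to 0.99774 within a condition and at 0.99369 to 0.99695 between the conditions. The points of these correlations are genes and not replicates. The leaf genes RCA, for Rubisco activase, and SBPASE, for a Calvin cycle phosphatase, lay at 13.2 to 14.5 on every array, at or above the 99.6th percentile of probe sets. The root hair expansin genes EXPA7 and EXPA18 lay at 4.80 to 5.40. These are all the measured members of the leaf list (2 of 17) and the root list (2 of 32). A gene is called measured where a probe set is assigned to it alone, which held for 13355 genes, while 8730 of the 22746 tested probe sets are unnamed here. In whole aerial parts, fewer cells of a type and less RNA per cell cannot be told apart.

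With both signals, 285 of 22746 probe sets (1.25%) differed from neither signal at an adjusted p under 0.05 (limma, two-sided, Benjamini-Hochberg), and such probe sets are called below. Of these, 207 were higher (0.91% of those tested) and 78 were lower (0.343%). The median rise was 0.55 on the log2 scale, within 0.32 to 3.16, and the median fall was -0.54, within -0.36 to -1.67. A change of 2-fold or more was found in 18 of the higher and 8 of the lower probe sets. An unadjusted p under 0.05 was found for 3428 probe sets. The groups of 3 arrays did not overlap in any of the 285, and they did not overlap in 21.1% of all probe sets. After subtraction of each array's median, which moved every difference by -0.05, the split was 137 higher and 134 lower. The number of calls fell to 20 without WFR 26 °C replicate 3, to 45 without replicate 2 and to 82 without replicate 1 of that condition, and to 55 without WL 22 °C replicate 2. Without WL 22 °C replicate 3, 49 probe sets were lower.

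**Figure D1:**
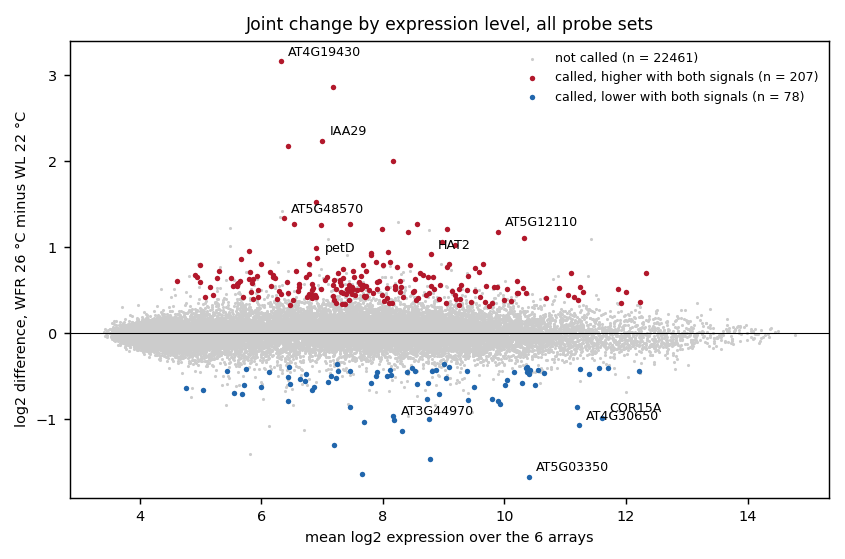
The log2 difference between WFR 26 °C and WL 22 °C (vertical) is plotted against the mean log2 expression of the 6 arrays (horizontal), with 1 point per probe set, 207 called higher in red and 78 called lower in blue. The called probe sets lie mostly at middle and high expression, with a median level of 7.80 against 6.96 for all tested probe sets.

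The gene lists were written with earlier results of these data known, so their ranks are no test. The shade marker list, with 4 measured genes, had the highest median difference. IAA29, a member of the Aux/IAA family of auxin response repressors, stood at 5.78, 5.80 and 6.08 on the WL 22 °C arrays and at 7.88, 7.98 and 8.51 on the WFR 26 °C arrays. Every array with both signals thus lay well above every array with neither. The rise was 4.72-fold, or 2.24 ± 0.15 on the log2 scale (SE; limma, adjusted p = 0.000306). HAT2, a transcription factor of the HD-Zip II class that acts in shade and auxin responses, was at 8.52, 8.33 and 8.13 with neither signal and at 9.11, 9.16 and 9.47 with both. Its groups did not overlap, and it rose by 0.92 ± 0.12 (limma, adjusted p = 0.0132). Of the 20 shade markers written, 4 were measured, and these 2 were called, beside 108 called higher of all 13355 measured genes. The other members, FHL, which carries phytochrome A into the nucleus, and BIM1, a brassinosteroid-response factor, had differences of 0.14 and 0.19 with adjusted p of 0.496 and 0.366 (limma). The list's median difference was 0.55, against 0.00 over all probe sets. The call of IAA29 held whichever array was left out, while that of HAT2 was lost without replicate 2 of WL 22 °C or WFR 26 °C replicate 2 or 3 (adjusted p of up to 0.0865, limma).

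In the auxin lists, 1 of 4 measured genes of synthesis and transport, 2 of 7 receptor and Aux/IAA genes and 2 of 5 GH3 and SAUR genes rose, and none was called lower. Over all 13355 measured genes, 108 were called higher and 32 lower. YUC2, a flavin monooxygenase that makes auxin from indole-3-pyruvate, was at 5.96, 5.98 and 6.22 with neither signal. With both signals it was at 6.601, 6.493 and 6.552, so that all 3 arrays lay above the highest WL 22 °C array. It rose by 0.50 ± 0.09 (limma, adjusted p = 0.0316), and the other 3 measured genes of the 34 written for auxin synthesis and transport, YUC4, YUC6 and YUC11, had differences of -0.19, 0.09 and -0.04. The single differences of YUC2 were 0.10 with far-red alone and 0.13 with warmth alone.

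Among 7 measured of 39 auxin receptor and Aux/IAA genes, IAA29, also counted as a shade marker, and IAA20 rose. IAA20, an Aux/IAA repressor, was at 4.89, 4.95 and 4.77 against 5.25, 5.24 and 5.39, a rise of 0.43 ± 0.08 (limma, adjusted p = 0.0382). The other 5, IAA18, IAA30, IAA31, IAA33 and IAA34, had differences from -0.17 to 0.07, and the list's median was -0.07.

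GH3 enzymes join amino acids to auxin and other hormones. WES1, also called GH3.5, was at 7.83, 7.53 and 7.48 with neither signal and at 8.52, 8.37 and 8.81 with both. All arrays with both signals lay higher, and the gene rose by 0.95 ± 0.13 (limma, adjusted p = 0.0133). GH3.3 was at 7.23, 7.30 and 7.25 against 7.74, 7.63 and 7.57, a rise of 0.39 ± 0.07 (limma, adjusted p = 0.0407). GH3.1, GH3.9 and GH3.17 had differences of 0.05, -0.06 and 0.21, and the 5 measured of 88 GH3 and SAUR genes had a median of 0.21. The smaller auxin calls were the least firm. Those of IAA20 and GH3.3 ended whichever of the 6 arrays was left out (adjusted p of 0.0575 to 0.171 and of 0.0736 to 0.136), that of YUC2 without any array but WL 22 °C replicate 3 (up to 0.147), and that of WES1 without replicate 2 of WL 22 °C or WFR 26 °C replicate 3 (up to 0.0865). GH3.3 also lost its call under each of 4 other normalisations (adjusted p of 0.0503 to 0.0761, limma) and with a variance trend (0.052), and IAA20 after median subtraction (0.0644).

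**Figure D2:**
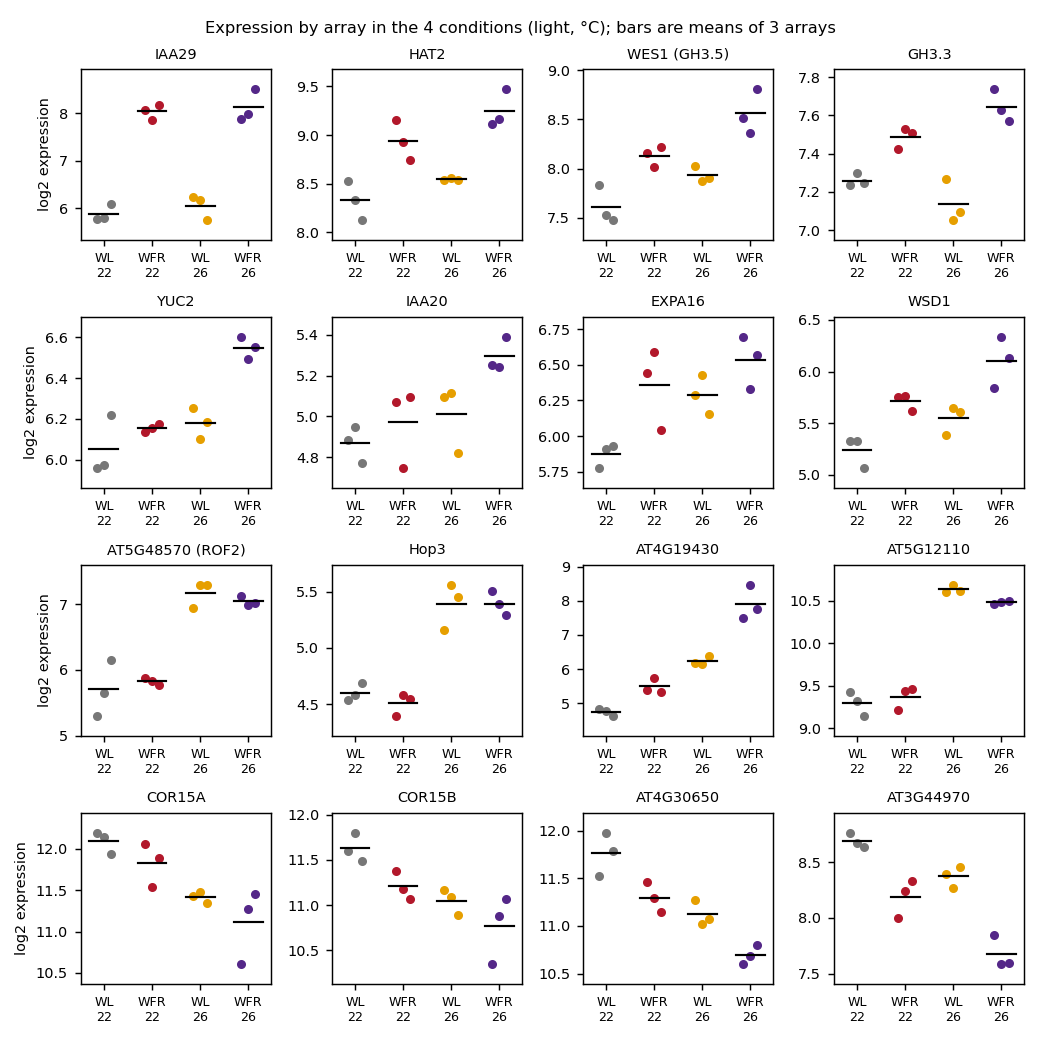
Log2 expression (vertical) of 16 named genes is shown for each of 3 arrays in the 4 conditions (horizontal; light quality over temperature in °C), with the mean as a bar. IAA29 is high in both far-red conditions, AT5G48570 and Hop3 are high in both 26 °C conditions, and COR15A and COR15B are lowest on average with both signals.

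Of other hormone genes, none was called, beside 140 called of all 13355 measured genes. With so few measured members, the lack of calls is no result about these hormones. The measured members were 4 for gibberellin, 2 for brassinosteroid, 1 for ethylene, 2 for cytokinin, 6 for jasmonate and 2 for salicylate and immunity, with median differences from -0.19 (cytokinin) to 0.14 (gibberellin). Single jasmonate genes had differences from -0.66 to 0.77. RR16, a type-A response regulator of cytokinin signalling, overlapped between the groups, at 5.76, 6.08 and 6.35 against 6.01, 5.82 and 6.02. Its joint difference was -0.11 ± 0.13 (limma, adjusted p = 0.755). Its single differences had opposite signs, 0.60 with far-red alone and -0.33 with warmth alone.

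The cell wall lists moved little as groups. Expansins loosen the wall and xyloglucan endotransglucosylases cut and rejoin its xyloglucan. Of 28 measured members of 68, 14 had positive and 14 negative differences, and the median was 0.01, with its sign turning under median or upper-quartile subtraction. EXPA16, an alpha-expansin, was the only member called, beside 108 called higher of all 13355 measured genes. It was at 5.77, 5.91 and 5.93 with neither signal and at 6.70, 6.33 and 6.57 with both, and it rose by 0.66 ± 0.10 (limma, adjusted p = 0.0177). Its groups did not overlap, and its call was lost without replicate 2 of WL 22 °C or WFR 26 °C replicate 1 or 3 (up to 0.119). The expansin-like gene EXLA2 had a joint difference of 0.18 ± 0.08 (limma, adjusted p = 0.316). No gene of 9 measured cell wall polysaccharide synthases was called, although their differences ran from -0.31 to 1.1, with a median of -0.05. WSD1, a wax ester synthase of the stem epidermis and the single call among 6 measured trichome, guard cell and phloem markers, was at 5.33, 5.33 and 5.07 against 5.84, 6.33 and 6.14. It rose by 0.86 ± 0.13 (limma, adjusted p = 0.0177), a call lost without replicate 2 of WL 22 °C or WFR 26 °C replicate 2 or 3 (up to 0.116).

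Among cold-regulated genes, 2 of 6 measured members were called lower and none higher, beside 32 called lower of all 13355 measured genes. COR15A and COR15B are neighbouring genes for chloroplast proteins that protect membranes during freezing, and probe sets of such similar genes may share signal. COR15A was at 12.19, 12.14 and 11.94 with neither signal and at 10.61, 11.27 and 11.46 with both. The groups did not overlap, although the arrays with both signals spread widely, and the difference was -0.98 ± 0.19 (limma, adjusted p = 0.042). COR15B was at 11.60, 11.80 and 11.49 against 10.35, 10.88 and 11.07, a difference of -0.86 ± 0.16 (limma, adjusted p = 0.0428). For both genes WFR 26 °C replicate 1 was the lowest array. The list, of 33 genes as written, had a median difference of -0.84. LTI30, a dehydrin, and COR27, a cold- and light-regulated gene of the clock, had differences of -1.13 and -0.83 with adjusted p of 0.0565 and 0.0643 (limma). The dehydrin COR47 had -0.31, and STZ, a zinc-finger repressor, had 0.01. The COR15B call was lost whichever array was left out (adjusted p of 0.0585 to 0.148), and that of COR15A without any array but WFR 26 °C replicate 1 (up to 0.136). Quantile and cyclic loess normalisation left neither called (0.0519 to 0.0557, limma), and median subtraction gave 3 cold gene calls.

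Among heat shock and chaperone genes, 2 of 7 measured members were called higher, beside 108 of all 13355 measured genes. AT5G48570, also called ROF2 or FKBP65, encodes a peptidyl-prolyl isomerase that binds HSP90 and acts in heat tolerance. It was at 5.30, 5.66 and 6.15 with neither signal and at 7.12, 6.99 and 7.02 with both. The arrays with both signals lay close together and above the others, and the rise was 2.53-fold, or 1.34 ± 0.17 (limma, adjusted p = 0.0132). Hop3, a co-chaperone that links HSP70 and HSP90, was at 4.54, 4.58 and 4.69 against 5.51, 5.39 and 5.29. It rose by 0.79 ± 0.08 (limma, adjusted p = 0.00324), and its relatives Hop1 and Hop2 had differences of 0.13 and 0.23 with adjusted p of 0.486 and 0.235. ATHSP22.0 and HSA32 had differences of -0.09 and -0.03. The list's median was 0.20. The Hop3 call held without any 1 array, while that of AT5G48570 was lost without WL 22 °C replicate 2 or any of the WFR 26 °C arrays (up to 0.0919).

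Of 69 measured chloroplast-encoded genes, a family added after seeing the data, 4 were called higher and none lower. Over all 13355 measured genes, 108 were called higher. petN and petD encode subunits of the cytochrome b6f complex, which passes electrons between the photosystems, and ndhE and ndhH encode subunits of the NDH complex of cyclic electron flow. petD was at 6.486, 6.496 and 6.466 with neither signal and at 7.42, 7.31 and 7.36 with both. The gap between the groups was far wider than the spread within them, and the rise was 0.88 ± 0.07 (limma, adjusted p = 0.000443). petN was at 6.81, 7.61 and 7.58 against 8.28, 8.34 and 8.18, a rise of 0.93 ± 0.18 (adjusted p = 0.0462) that was lost without WL 22 °C replicate 2 or any of the WFR 26 °C arrays (up to 0.19) and under 3 normalisations (up to 0.0561). The differences of ndhE and ndhH were 0.50 and 0.49, with adjusted p of 0.0254 and 0.0177 (limma). The family's median was 0.10, with 46 positive and 23 negative differences. The labelling used an oligo-dT primer, per the labels' protocols, and chloroplast transcripts mostly lack long poly(A) tails.

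The lists of chlorophyll synthesis and of light-harvesting and photosystem genes gave no calls, beside 140 called of all 13355 measured genes. For chlorophyll synthesis, 9 of 9 measured genes had values below 0, from -0.25 (HEMA3) to -0.06 (HEMA2), with a median of -0.19. The 8 measured light-harvesting and photosystem genes had a median of 0.02, with its sign turning under median or upper-quartile subtraction. ATG8 proteins coat the autophagosome, and 2 of 10 measured autophagy genes were called higher, beside 108 of all 13355 measured genes. ATG8D was at 8.32, 8.31 and 8.14 against 8.656, 8.6995 and 8.852, and ATG8B at 7.070, 6.996 and 7.078 against 7.38, 7.38 and 7.43. Their rises were 0.48 ± 0.08 and 0.35 ± 0.07 (limma, adjusted p = 0.0327 and 0.0428). Median subtraction ended both calls (0.0549 and 0.0722), the ATG8B call ended whichever array was left out (0.0592 to 0.186), and the ATG8D call ended without any array but WL 22 °C replicate 1 (up to 0.147). The ATG8B call also ended under quantile and cyclic loess normalisation (0.074 and 0.0615), with a variance trend (0.0713) and in the fit of all 12 arrays (0.13). The 7 measured sugar starvation genes gave no call, and all had positive differences, with a median of 0.08, on the deposited scale. After median subtraction 5 were positive and 2 negative, and after quantile normalisation 6 and 1.

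**Figure D3:**
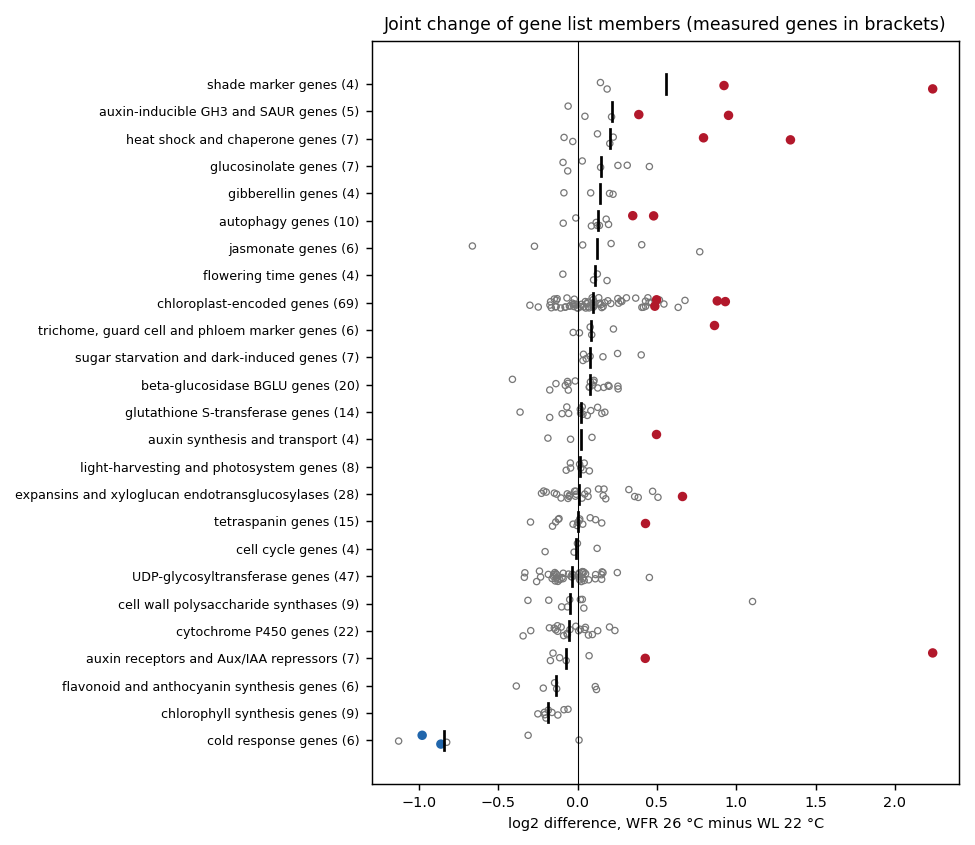
The log2 difference between WFR 26 °C and WL 22 °C (horizontal) is shown for each measured member of the gene lists with 4 or more measured genes, called members filled and the list median as a bar, with a small vertical scatter. The shade list, with 4 measured genes, has the highest median at 0.55 and the cold list the lowest at -0.84. Most members of the other lists lie near 0. The lists were written with earlier results of these data known.

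The named gene with the largest rise was AT4G19430, for which the reference tables give no name beyond the locus. It was at 4.84, 4.78 and 4.62 with neither signal and at 7.49, 8.46 and 7.77 with both, so the groups lay far apart. The rise was 8.95-fold, or 3.16 ± 0.20 (limma, adjusted p = 0.000199). AT5G12110 was at 9.43, 9.32 and 9.14 against 10.46, 10.49 and 10.50, a rise of 1.18 ± 0.08. Its arrays with both signals were nearly equal. AT2G14900 was at 8.44, 8.39 and 8.51 against 9.38, 9.53 and 9.63, a rise of 1.07 ± 0.08. Its neighbour on the chromosome, AT2G14910, also rose, by 0.48. There were 3 pairs of neighbouring called genes among 5814 measured pairs, the others being COR15B with COR15A and AT2G07707 with AT2G07708. The calls of AT4G19430, AT5G12110 and AT2G14900 held without any 1 array. AT1G62510, AT4G17470, AT4G23680, AT1G80130 and AT1G14120 rose by 0.99 to 1.21. Their calls were less firm: that of AT1G14120 ended without WFR 26 °C replicate 3 (0.0653), that of AT1G62510 without that array or WL 22 °C replicate 2 (up to 0.0691), and that of AT1G80130 without WFR 26 °C replicate 2 or 3 (up to 0.0919). Those of AT4G17470 and AT4G23680 ended without any array but WL 22 °C replicate 1 and WL 22 °C replicate 3, respectively (up to 0.233 and 0.183). The call of AT4G17470 also ended under each of the 4 other normalisations (0.0578 to 0.0642, limma).

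Among falls, AT5G03350 had the largest difference of a named gene. It was at 11.89, 10.82 and 10.98 with neither signal and at 9.09, 9.72 and 9.87 with both. The groups did not overlap but each spread widely, and the difference was -1.67 ± 0.27 (limma, adjusted p = 0.0253). AT4G30650 was at 11.53, 11.98 and 11.79 against 10.60, 10.68 and 10.80, a difference of -1.07 ± 0.11. AT3G44970 was at 8.76, 8.68 and 8.63 against 7.85, 7.59 and 7.60, a difference of -1.01 ± 0.09. These last falls had adjusted p of 0.0039 and 0.000995 (limma) and were called without any 1 array. ChiC, a class V chitinase, was at 6.40, 5.84 and 5.86 against 5.41, 5.34 and 5.23, and fell by 0.71 ± 0.14 on the log2 scale (adjusted p = 0.046). AT2G43590, AT5G62360, AT1G07050, AT4G34950, AT5G55450, AT1G55450, AT4G36430, AT1G07450 and AT5G42250 had differences from -1.30 to -0.53. Calls ended without any 1 of the WFR 26 °C arrays for AT5G03350 (up to 0.106), and without these or WL 22 °C replicate 2 for ChiC, AT1G55450 and AT4G36430 (up to 0.223, 0.177 and 0.202). Without replicate 2 of WL 22 °C or WFR 26 °C replicate 2 or 3 they ended for AT5G62360 and AT5G55450 (up to 0.103 and 0.116), and without replicate 2 of WL 22 °C or WFR 26 °C replicate 3 for AT4G34950 (up to 0.0919). Calls ended for all but 1 omission for AT2G43590 (WFR 26 °C replicate 1 left out), AT1G07050 and AT5G42250 (WL 22 °C replicate 1) and AT1G07450 (WL 22 °C replicate 3), with adjusted p of up to 0.228, 0.193, 0.145 and 0.16. Quantile and cyclic loess normalisation ended the calls of ChiC (0.0635 and 0.0556) and AT4G36430 (0.0581 and 0.0545), and the fit of all 12 arrays that of AT5G62360 (0.0611).

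Of the called genes with a symbol that the naming rule did not pick, chosen here after their values were seen, the highest were PWD, a phosphoglucan, water dikinase of starch breakdown, and the calmodulin-like gene CML30, both with a difference of 0.66. ALC, a basic helix-loop-helix factor of fruit opening, rose by 0.57, and PGRL1B, a protein of cyclic electron flow, by 0.52. RAPTOR2, a subunit of the TOR kinase complex, rose by 0.35, and BLT, which acts in trichome branching, by 0.33. F2KP, which makes and breaks down fructose 2,6-bisphosphate, fell by 0.40. The rises of RAPTOR2 and BLT lay near the smallest called rise, 0.32. How far the calls of these genes depend on single arrays or on normalisation is not given here. Probe sets without a named gene made up 145 of the 285 calls. The largest unnamed rise went from 5.58, 5.83 and 5.83 to 8.12, 8.78 and 8.93, a difference of 2.86 (limma, adjusted p = 0.000199). The largest unnamed fall went from 8.21, 8.68 and 8.54 to 6.63, 7.10 and 6.80, a difference of -1.64 (adjusted p = 0.000995).

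The single changes, far-red alone (WFR 22 °C minus WL 22 °C) and warmth alone (WL 26 °C minus WL 22 °C), share the WL 22 °C arrays with the joint change, so the values are set side by side and no overlap between them is read as a result. In the 207 probe sets called higher, the median joint difference was 0.55, and the medians were 0.27 with far-red alone, 0.31 with warmth alone and 0.61 for the sum of the single changes. In the 78 called lower the medians were -0.54 jointly, -0.18 with far-red alone, -0.33 with warmth alone and -0.53 for the sum. Both single changes had the joint direction in 184 of the 207 and in 66 of the 78. The probe sets were picked on the joint change, and noise in the shared WL 22 °C arrays moves both single changes the same way. These counts are therefore no test of agreement. Far-red alone was the larger single change in 88 of the 207 and 26 of the 78.

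Genes differed in which signal their joint change matched in size. IAA29 had differences of 2.15 with far-red alone and 0.17 with warmth alone, beside 2.24 jointly. AT1G80130, with 1.11 and 0.11 beside 1.02, and petD, with 0.72 and 0.22 beside 0.88, had the same order. AT5G48570 had 0.13 with far-red alone and 1.47 with warmth alone beside 1.34, AT5G12110 had 0.07 and 1.34 beside 1.18, and Hop3 had -0.09 and 0.79 beside 0.79. AT2G14900 had about the same from each, 0.66 and 0.62 beside 1.07. AT4G30650 had -0.46 and -0.64 beside -1.07, and COR15A had -0.26 and -0.68 beside -0.98. AT1G62510 had opposite single differences, -1.07 with far-red alone and 1.31 with warmth alone, and a joint difference of 1.21, near that of warmth alone. AT5G55450 had 0.23 and -0.94 beside -0.77.

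**Figure D4:**
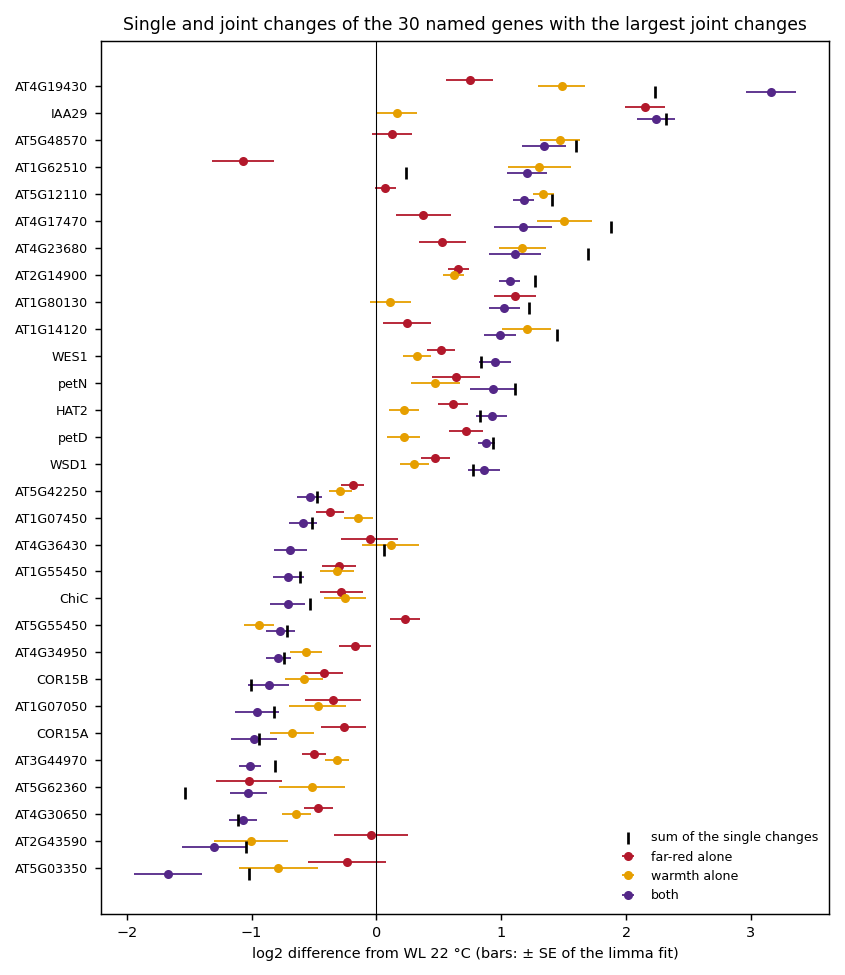
For the 30 named genes with the largest joint changes (rows), log2 differences from WL 22 °C (horizontal) are shown for far-red alone in red, warmth alone in yellow and both in purple, with bars of ± SE and a black tick at the sum of the single differences. IAA29 lies near its far-red value, AT5G48570 near its warmth value, and AT4G19430 lies beyond the sum.

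The departure from additivity is the joint difference minus the sum of the single differences, tested as a contrast over all 12 arrays. No probe set had a departure at an adjusted p under 0.05 (limma, 0% called), and the smallest adjusted p was 0.0891. At an unadjusted p under 0.05 there were 1254 probe sets (5.51%), and 48 of the 285 joint calls (16.8%). The joint calls were picked on arrays that also enter the departure, so the picking itself can change their share. The shares are therefore no test of whether joint calls depart from additivity more often than other probe sets. Of these 48, 30 were called higher with a joint change smaller than the sum, and 9 were called higher with one larger than the sum. The other 9 were called lower, 4 with a joint change larger in size than the sum and 5 with a smaller one. Whatever the p, the joint change was larger in size than the sum in 68 of the 207 called higher and in 44 of the 78 called lower. These counts are from the deposited scale alone. On that scale, array medians were 7.002 to 7.012 for WFR 22 °C and 6.908 to 6.979 for WL 22 °C. Such shifts of whole arrays enter the sum and can change the counts. Over all 285, the median departure in the direction of the joint change was -0.05, with quartiles of -0.18 and 0.06, against -0.01 over all tested probe sets. The median SE of a departure was 0.14 among the called probe sets, so departures of single genes near the size of these medians were not detectable with 3 arrays per condition.

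The named departures below have unadjusted p-values and did not pass the adjusted test. AT4G19430 had 0.75 with far-red alone and 1.48 with warmth alone, a sum of 2.23 against 3.16 jointly. Its departure was 0.93 (95% interval 0.367 to 1.497; limma, unadjusted p = 0.00327, adjusted p = 0.902). ASPGB1, asparaginase B1, was at 6.68, 6.63 and 6.52 with neither signal and at 6.95, 7.10 and 7.10 with both. It rose by 0.44 ± 0.08, with single differences of -0.11 and 0.02, and its departure was 0.53 (0.27 to 0.79; limma, unadjusted p = 0.000685). AT1G62510 had a departure of 0.97 (0.21 to 1.73), with WFR 22 °C arrays that spread widely, at 7.52, 7.96 and 6.65. For the auxin genes YUC2 and GH3.3 the departures were 0.27 (0.03 to 0.50) and 0.28 (0.06 to 0.50), while those of IAA29, HAT2 and WES1 were -0.08, 0.09 and 0.11, with intervals that hold 0.

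Joint changes smaller than the sum included AT3G28270, at 9.23, 9.08 and 9.07 against 9.65, 10.15 and 9.87. Its joint difference of 0.76 compared with a sum of 1.63, a departure of -0.86 (-1.20 to -0.53; limma, unadjusted p = 7.87e-05, adjusted p = 0.596). AT2G20560, at 5.50, 5.55 and 5.73 against 6.34, 6.40 and 6.47, had 0.81 jointly against a sum of 1.44, a departure of -0.63 (-0.997 to -0.256). AT4G17470 and AT4G23680 had departures of -0.71 and -0.58, with intervals that reach -0.04 and -0.01. EXLA2, at 6.05, 6.08 and 5.87 against 6.19, 6.14 and 6.19, had -0.33 (-0.55 to -0.11), and RR16 -0.39 (-0.77 to -0.0010). Of the falls, AT4G36430 had a joint difference of -0.69 against a sum of 0.06, a departure of -0.75 (-1.45 to -0.05). Its WFR 22 °C arrays were at 5.63, 5.48 and 6.40 and its WL 26 °C arrays at 5.85, 5.67 and 6.49. Replicate 3 was thus far above the others in each single condition. AT5G02160 fell by less than the sum, with -0.47 against -0.94. The joint calls of ASPGB1, AT3G28270 and AT5G02160 were lost without replicate 2 of WL 22 °C or WFR 26 °C replicate 2 or 3 (up to 0.16, 0.122 and 0.0919). Those of ASPGB1 and AT5G02160 were also lost without WFR 26 °C replicate 1, that of ASPGB1 without WL 22 °C replicate 3, and that of AT4G36430 in the fit of all 12 arrays (0.146). Median subtraction, quantile and cyclic loess normalisation ended the ASPGB1 call (0.0548 to 0.0607). The joint call of AT2G20560 held without any 1 array.

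**Figure D5:**
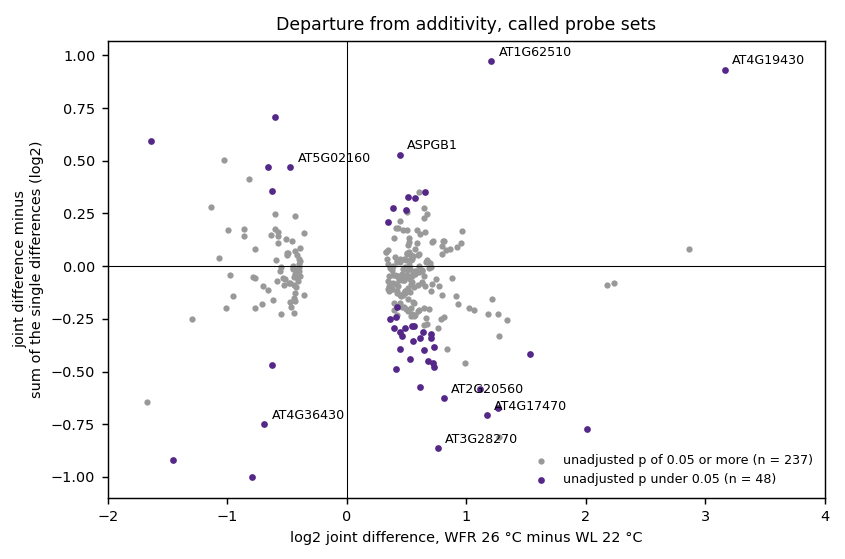
The joint log2 difference minus the sum of the single differences (vertical) is plotted against the joint log2 difference (horizontal) for the 285 called probe sets, with the 48 at an unadjusted p under 0.05 in purple. On the deposited scale, the joint change was smaller in size than the sum in 139 of the 207 called higher and in 34 of the 78 called lower. No departure passed the adjusted test.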

How the data were processed

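The authors deposited 1 log2 value per probe set and array. Per the submitters' processing notes, the tools were RMA, affy and MAS5 (no versions stated). Which tool produced these values is not given in the sources read. The 64 AFFX control probe sets were left out. Genes came from the platform annotation, updated through RefSeq records of TAIR10.1 (13436 probe sets; 77 kept the platform name), and 503 probe sets with several genes were not named. For list genes with more than 1 probe set, the one with the highest mean over the 6 arrays was used.

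The joint change was fitted to the 6 arrays by limma 3.58.1 under R 4.3.3 (functions lmFit and eBayes, 4 residual and 5.62 prior degrees of freedom), with Benjamini-Hochberg adjustment over 22746 probe sets. The single changes, their sum and the departure came from a fit of all 12 arrays with 1 mean per condition. Errors are standard errors of the fit. The labels call the arrays biological replicates without saying whether they were separate cultures, so p-values measure the spread between these arrays. Their number limits the precision. Both fits were tested on simulated data.

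Members, gene lists and tests were chosen with earlier results of these data known, and the chloroplast and symbol families were added after seeing the data. Lists are given by counts and medians. Named genes are the 15 largest rises and falls among called single-gene probe sets whose groups do not overlap, up to 3 called members of each list, the 4 largest departures each way among called genes with an unadjusted departure p under 0.05, and a list of 27 genes, of which 10 were measured. Genes on that list without a named probe set, among them PIL1, HFR1 and PIF4, are not analysed here. Alternatives were 4 normalisations, 2 filters on low values, a variance trend, array weights, a replicate block, all 12 arrays and leaving out each array.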

Additional observations from a re-analysis of the deposited data

How the results depend on the processing

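The count of 285 joint calls stayed between 215 and 354 under 4 normalisations, 2 filters on low values and a variance trend, although median subtraction changed the split from 207 higher and 78 lower to 137 and 134. The higher share was 72.6% as reported and 50.6% to 66.9% under the normalisations. Array weights gave 1028 calls (713 higher, 315 lower) and the fit of all 12 arrays 512 (368 and 144), of which 268 were among the 285. Leaving out 1 array gave 20 to 293 calls, 16 to 206 higher and 4 to 87 lower. Same-numbered arrays did not deviate together (correlations of -0.195, -0.0632 and -0.0585), and differently numbered arrays gave -0.0434 to 0.114. With 3 arrays per condition, this check cannot settle whether the numbers pair the samples. With the replicate block 76 probe sets were called (58 higher, 18 lower), 70 of them among the 285, and 24 of the 41 named calls were lost. Departure calls were 0 under every alternative run except array weights, which gave 2.

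Of 43 named genes 41 were called, 9 kept the call whichever array was left out, and 17 kept it under every other alternative that tested them. Of these 17, the filter on the lowest 50% of probe sets removed AT4G19430, AT5G48570, petD, WSD1, AT5G42250, Hop3 and AT2G20560. It gave no value for these 7 or for other named genes with low values, among them YUC2, IAA20 and EXPA16. The joint difference of RR16, not called, ran from -0.264 without WL 22 °C replicate 1 to 0.0303 without WL 22 °C replicate 3. The 3 arrays per condition limit which changes could be called, and genes without a named probe set are outside all lists.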

Other observations

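Gene families that share a symbol were added after seeing the data, and their counts stand beside 140 called of all 13355 measured genes. None of 20 measured beta-glucosidase BGLU genes, 14 glutathione S-transferase genes, 47 UDP-glycosyltransferase genes or 22 cytochrome P450 genes was called on the deposited scale, with medians from -0.06 to 0.08. Under each of the 4 other normalisations 1 BGLU gene was called lower, BGLU47, which had a difference of -0.41 (limma, adjusted p = 0.0679) on the deposited scale. The median of the glutathione S-transferase genes turned negative after median subtraction. Of 15 tetraspanin genes, 1 was called: TET5 rose by 0.42 ± 0.07 (limma, adjusted p = 0.0294), a call lost under median subtraction, quantile and cyclic loess normalisation.

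Flavonoid and anthocyanin genes had no joint call among 6 measured of 39, beside 140 called of all 13355 measured genes. Their joint median of -0.14 compared with a median sum of single changes of 0.24. DFR, dihydroflavonol reductase, had a joint difference of -0.39 (limma, adjusted p = 0.137) beside -0.08 with far-red alone and 0.33 with warmth alone. Its departure was -0.65 (limma, unadjusted p = 0.0142). The departures of UF3GT, AT5MAT and UGT78D2, which add sugar or acyl groups to anthocyanins and flavonols, were -0.66, -0.66 and -0.36. These named genes have the most negative departures of the list, whose median departure was -0.50. The remaining measured members had higher departures. No departure of the list passed the adjusted test, and the named genes were chosen after their values were seen.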
